A study of Mus musculus with 14 samples.

Results

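The genes described here encode the machinery by which smooth muscle of the uterus, the myometrium, contracts. They are 10 of the 21853 genes of the series, chosen by name, and each was found once in the table of gene expression. The 8 contractile members are Acta2 and Actg2 (smooth muscle actins), Myh11 (smooth muscle myosin heavy chain), Mylk (myosin light chain kinase), Cnn1 (calponin) and Tagln (transgelin), which bind actin, Des (desmin, the intermediate filament of muscle) and Lmod1 (leiomodin, which starts actin filaments). The other 2 are Oxtr, the receptor for oxytocin, and Gja1, which encodes the gap junction protein connexin 43. All 10 are protein-coding genes on mm10 (GRCm38). As examples, Acta2 lies on chromosome 19 from 34241090 to 34255590 on the minus strand, Oxtr on chromosome 6 from 112473683 to 112489943 on the minus strand, and Gja1 on chromosome 10 from 56377330 to 56402513 on the plus strand.

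The libraries came from C57BL/6J female mice, all 28 weeks old, that belonged to an old control group (OC, 3 mice) given normal saline or an old treatment group (OT, 4 mice) given AMSC-CM. AMSC-CM is the culture medium conditioned by human amniotic membrane mesenchymal stem cells from 3 donors. It was injected into the tail vein 6 times at intervals of 4 days, 1 µL per g of body weight each time. Mice of both groups had first received pregnant mare serum gonadotropin and then human chorionic gonadotropin, 10 IU of each and 48 h apart. Ovary and uterus of every mouse were sequenced, which gave 14 libraries in 4 groups. The libraries are labelled as ovary or uterus tissue, so fewer smooth muscle cells and less RNA per smooth muscle cell cannot be told apart in any value below. Whether whole organs were taken is not stated. The uterus is a wall of smooth muscle around a stroma and an epithelium, and the ovary holds smooth muscle mainly around its vessels and in its stroma.

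Contraction of the myometrium starts when calcium enters the cell and, bound to calmodulin, switches on the kinase encoded by Mylk, which phosphorylates the myosin light chain so that the Myh11 motor pulls on actin. Oxytocin, through Oxtr, raises calcium, and connexin 43 joins neighbouring cells so that they contract as a unit. Towards birth the uterus is known for a rise of both Oxtr and Gja1. Outside the muscle, Gja1 is known as the connexin of ovarian granulosa cells. Many smooth muscle genes are switched on by serum response factor with its partner myocardin, at a sequence called the CArG box. The AP-1 factors, which include Fos and Jun proteins, bind another short sequence.

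The 250 bases before a RefSeq start were at hand for 7 of the 10 genes (GRCm38.p6). The windows of Acta2, Oxtr and Gja1 are shown because these genes stand for the contractile, the receptor and the gap junction members. Actg2, Myh11 and Tagln are named only. Capitals in the Acta2 window (chr19:34255374-34255623, minus strand) mark matches to a relaxed CArG box, which is CC, then 6 bases of which at most 1 is C or G, then GG. Capitals in the Gja1 window (chr10:56377050-56377299, plus strand) mark the AP-1 sequence TGANTCA. The Oxtr window (chr6:112489826-112490075, minus strand) held neither.
Acta2: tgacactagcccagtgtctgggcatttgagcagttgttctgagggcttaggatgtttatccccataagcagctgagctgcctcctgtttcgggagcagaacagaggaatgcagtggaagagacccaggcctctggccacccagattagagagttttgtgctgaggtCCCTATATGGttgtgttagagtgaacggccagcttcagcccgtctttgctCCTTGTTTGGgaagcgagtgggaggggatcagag
Oxtr: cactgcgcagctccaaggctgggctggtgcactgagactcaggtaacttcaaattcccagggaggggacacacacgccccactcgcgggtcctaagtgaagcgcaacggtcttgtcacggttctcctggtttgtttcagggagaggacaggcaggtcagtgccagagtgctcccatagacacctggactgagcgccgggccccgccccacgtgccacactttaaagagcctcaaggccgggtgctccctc
Gja1: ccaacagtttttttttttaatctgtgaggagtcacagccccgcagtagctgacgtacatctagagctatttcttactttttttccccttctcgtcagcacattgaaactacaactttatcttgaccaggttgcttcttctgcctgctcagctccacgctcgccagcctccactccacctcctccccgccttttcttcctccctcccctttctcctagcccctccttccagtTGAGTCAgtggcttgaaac
The strict CArG box, in which all 6 bases are A or T, was in 0 of the 7 windows and in 1.47% of 32851 windows of the same length over all genes. The relaxed form, chosen after the strict one had been searched, was in the Acta2 window alone, at 84 to 75 and at 34 to 25 bases before the start, and in 8.59% of all windows. TGAGTCA lay 64 to 58 bases before the RefSeq start used for Mylk and 19 to 13 bases before that of Gja1. TGANTCA was in 6.75% of all windows. The Mylk window (chr16:34784700-34784949, plus strand) lies inside the gene, which spans 34745210 to 35002420, so it precedes an internal start. The windows of Acta2, Oxtr, Cnn1 and Lmod1 lie partly inside the spans of their genes. Both Acta2 matches fall inside the span of that gene, which ends at 34255590. Each motif reads the same way on both strands, the strict CArG box is a case of the relaxed one, and no CArG match overlapped an AP-1 match in these windows. A match is a description of these letters and not evidence of binding.

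The libraries were first checked against their labels. Values are FPKM, fragments relative to the length of the transcript and to all mapped fragments, so levels of different genes can be set side by side. The summed FPKM of 7 ovary markers was 2814 to 3826 in the ovaries and 2.78 to 8.10 in the uteruses. That of 4 uterus markers, among them the positional genes Hoxa10 and Hoxa11, was 189 to 396 in the uteruses and 4.16 to 79.8 in the ovaries. That of 4 oviduct markers, among them Ovgp1, was 457 to 978 in the ovaries and 8.06 to 187 in the uteruses. The sum of 10 skeletal muscle markers was 90.5 to 187 FPKM in the uteruses and 11.3 to 31.4 FPKM in the ovaries. Most of it in the uteruses came from the actin Acta1 (60.1 to 139 FPKM) and the troponin Tnni2 (19.0 to 43.8 FPKM), while the fast myosins Myh1, Myh2 and Myh4 were at or near 0, with no value above 0.369 FPKM in any of the 14 libraries. Other lists moved with the treatment in the uterus. The sum of 7 markers of stratified epithelium was 2.72 to 13.1 FPKM in the OC uteruses and 43.7 to 774 FPKM in the OT uteruses. The sum of 6 adipocyte markers was 38.3 to 158 FPKM in the OC uteruses and 616 to 5627 FPKM in the OT uteruses, with the highest value in the OT1 uterus. That library stood apart: it also had the highest total over all genes, 577494 FPKM against 425875 to 471907 in the other 6 uteruses, and 48.7 FPKM of the urothelial gene Upk3a, which was at 0 in those 6. For the 10 genes, the comparison of OT with OC in the uterus is therefore also given without OT1.

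**Figure D1:**
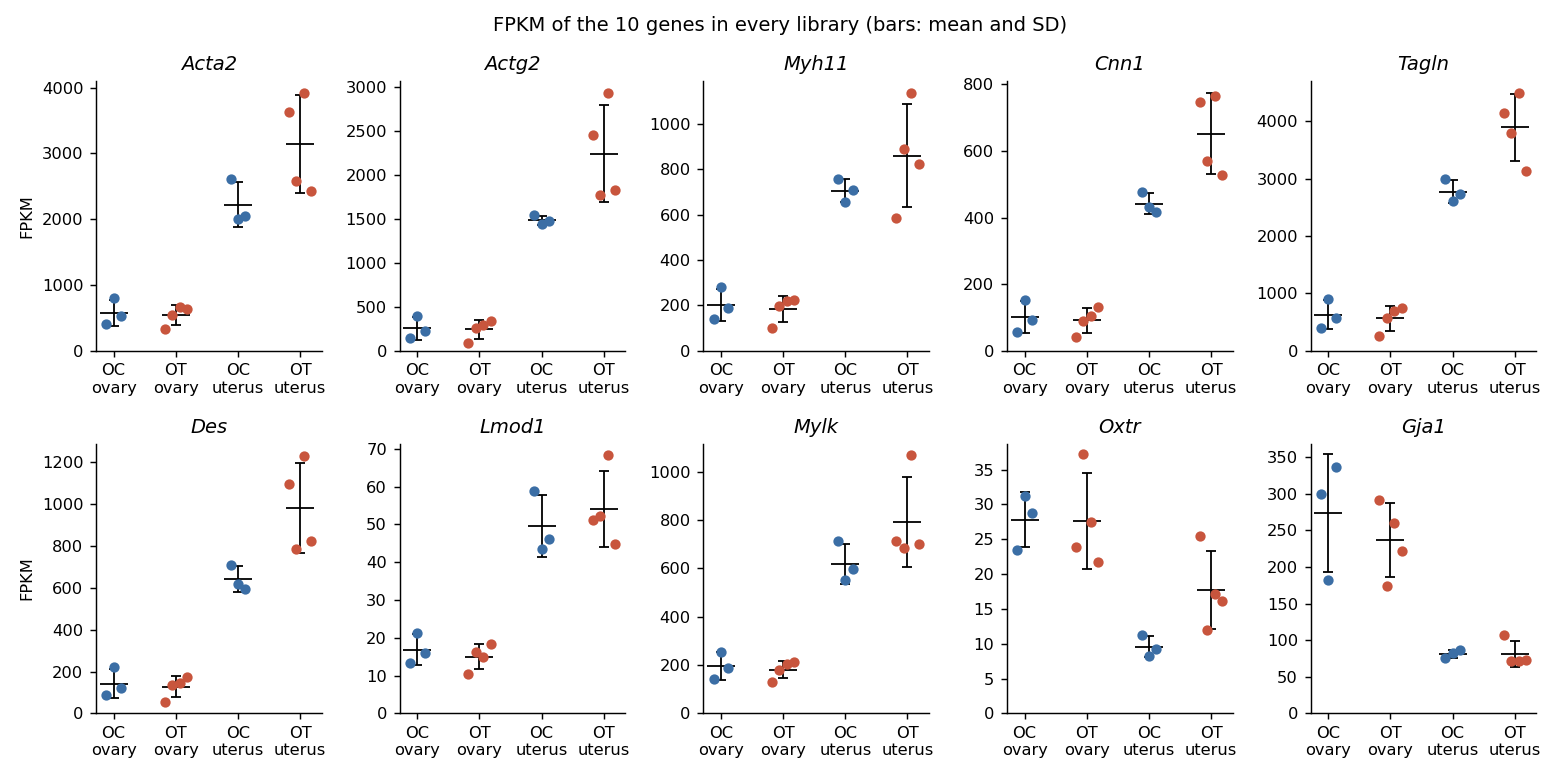
FPKM (vertical axes, linear from 0) of each of the 10 genes in the 3 OC and 4 OT libraries of ovary and uterus. Points are libraries, and bars show the mean and SD of each group. The 8 contractile genes sit higher in every uterus than in any ovary, and Gja1 the other way round. Oxtr is lowest in the OC uteruses, at 8.24 to 11.3 FPKM.

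The muscle genes were among the most abundant messages of the uterus. Averaged over the 7 uterus libraries, Tagln (3413 FPKM), Acta2 (2744 FPKM) and Actg2 (1918 FPKM) ranked 6, 7 and 12 among all 21853 genes. Des, Myh11, Mylk and Cnn1 followed at ranks 61 to 102, and Lmod1 was the least abundant contractile gene with 52.2 FPKM. Summed, the 8 contractile genes made up 1.91 to 3.34% of all FPKM in a uterus and 0.271 to 0.763% in an ovary. The order was alike in the ovary, where Tagln led with 592 FPKM, Acta2 followed with 558 FPKM, and Lmod1 came last with 15.8 FPKM. Oxtr and Gja1 were ordered otherwise. Gja1 averaged 252 FPKM in the ovary, above Actg2, and 81.2 FPKM in the uterus, and Oxtr averaged 27.7 FPKM in the ovary and 14.2 FPKM in the uterus, the lowest level of the 10 genes there.

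Levels in the uterus were then compared with those in the ovary, over all 7 mice. All 8 contractile genes were higher in the uterus. On the scale of log2(FPKM + 0.1), the difference ran from 1.71 for Lmod1 (SE 0.15) to 3.00 for Actg2 (SE 0.29), that is 3.28-fold and 8.0-fold, and the largest adjusted p among the 8 was 3.48e-06 (limma, Benjamini-Hochberg). A gene was called here at an absolute log2 difference of at least 1 and an adjusted p under 0.05, and 10.0% of the 14557 tested genes were called higher in the uterus. The lowest uterus value of each contractile gene lay above its highest ovary value, as it did for 11.5% of all tested genes, and the uterus was the higher organ in 7 of 7 mice. The 2 genes of hormone response and coupling went the other way. Gja1 was 1.62 lower in the uterus (SE 0.16, adjusted p = 1.65e-06, limma) and Oxtr 1.09 lower (SE 0.16, adjusted p = 9.31e-05, limma), where 9.59% of all genes were called higher in the ovary. These p-values take the 14 libraries as independent, although each mouse gave both organs. With the mouse as a block, the adjusted p was 4.72e-06 for Gja1 and 0.00406 for Oxtr (limma). The largest among the contractile genes was then 3.40e-05, for Des. Every uterus lay below every ovary for Gja1, as for 13.5% of all tested genes, and not for Oxtr.

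Within mice, the size of the difference varied more than its direction. Actg2 was 3.60 times as high in the uterus as in the ovary of OC2 and 26.9 times as high in OT1, with a median of 6.74 over the mice. Myh11 ran from 2.36 to 5.89 times, and Mylk from 2.15 to 5.44 times. The smallest difference of every contractile gene was that of OC2 and the largest that of OT1. Gja1 was 2.2 to 3.99 times as high in the ovary in 7 of 7 mice. Oxtr was higher in the ovary in 6 of 7 mice, by at most 3.78 times, and the exception was OT1, where the uterus was 1.06 times as high. Without OC2 or without OT2 the Oxtr difference was -0.9995 or -0.93, just inside the limit of 1, with adjusted p values still under 0.05.

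**Figure D2:**
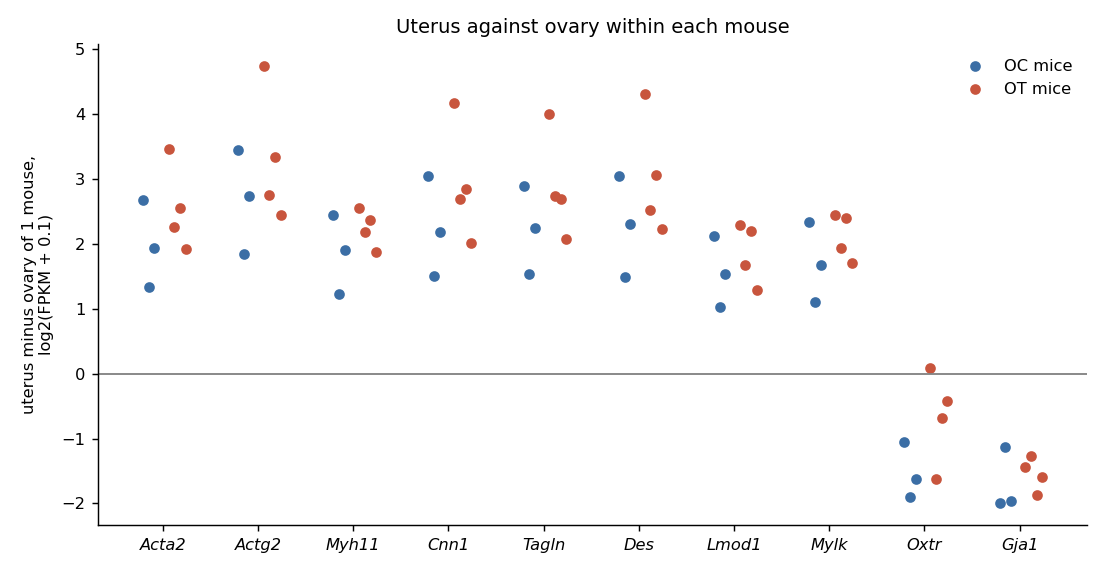
Difference between uterus and ovary of the same mouse (vertical axis, log2(FPKM + 0.1)) for each of the 10 genes. Points are mice, OC in blue and OT in red. All points of the 8 contractile genes lie above 0, all points of Gja1 lie below it, and Oxtr has 1 point above, in OT1.

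The proportions within the muscle set also differed between the organs. The ratio of Actg2, the actin typical of visceral muscle, to Acta2, the actin typical of vascular muscle, was 0.590 to 0.754 in the uteruses and 0.279 to 0.523 in the ovaries, so the ranges did not overlap. Oxtr per 1000 FPKM of Myh11 was 12.6 to 43.5 in the uteruses and 97.0 to 241 in the ovaries. The genes whose profile over the 14 libraries was closest to the mean of the 8 contractile genes, by the root mean square difference of centred log2 values among 13703 genes, were Pgm5 (0.16), Tspan2 (0.18), Tpm2 (0.18), Clmp (0.18) and Csrp1 (0.19). Tpm2 encodes a tropomyosin of smooth muscle, and Csrp1 a LIM protein of muscle. For Oxtr the closest profile was that of Pgam1, a glycolytic enzyme, at 0.22, followed by Tmem135, Lrrc59, Mvk and Aplp2. For Gja1 it was Mdfic at 0.17, followed by Bzw1, Thbs1, Plxnc1 and Hspd1. These distances carry the difference between organs and are a description of the 14 libraries.

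In the uterus, OT was compared with OC. All 8 contractile genes and Oxtr had a higher mean in the OT-group uteruses, but no member passed both cutoffs of the study, a fold change of 2 and an unadjusted p of 0.05. Over all 14151 tested genes, 2.23% passed both in the upward direction. At an unadjusted p of at most 0.05 alone, 5 of the 10 were higher in OT (Oxtr, Cnn1, Des, Actg2 and Tagln), where 5.15% of all genes were. The same 5 had every OT library above every OC library, which held for 6.46% of all genes. Adjusted over all genes, the smallest p among the 10 was 0.532, for Oxtr (limma). The median log2 difference of the 8 contractile genes was 0.48, and that of all tested genes 0.01.

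Oxtr, the receptor through which oxytocin drives contraction, had the largest difference. It was at 11.3, 8.24 and 9.24 FPKM in the 3 OC uteruses and at 25.4, 12.02, 17.1 and 16.2 FPKM in the 4 OT uteruses. The groups did not overlap, but OT2 lay close to OC1, and OT1 was far above the rest. The means were 9.59 ± 1.56 (SD, n = 3) and 17.7 ± 5.62 (SD, n = 4) FPKM. The log2 difference was 0.84 (SE 0.25, 1.79-fold, 95% confidence interval 0.26 to 1.41), with an unadjusted p of 0.00996 (limma). Without OT1, the library with the most fat and urothelial transcripts, it was 0.65 with an unadjusted p of 0.00882 and an adjusted p of 0.377. Without OT2 it was 1.003, which passes both cutoffs. Per 1000 FPKM of Myh11, Oxtr was 12.6 to 15.0 in the OC uteruses and 13.5, 15.1, 19.6 and 43.5 in the OT uteruses, so on that scale the groups overlapped.

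For Gja1, the connexin that couples muscle cells, no difference was detected. It was at 75.2, 83.1 and 85.9 FPKM in the OC uteruses and at 107, 72.2, 71.4 and 73.5 FPKM in the OT uteruses. OT1 was the highest of all 7 uteruses, and the other 3 OT libraries lay below every OC library. The log2 difference was -0.03 with a 95% confidence interval of -0.42 to 0.36 and an adjusted p of 0.963 (limma). Without OT1 it was -0.17 with an unadjusted p of 0.11.

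Among the filament genes, Des differed most. Desmin messages were at 711, 620 and 596 FPKM in the OC uteruses and at 1096, 784, 1230 and 822 FPKM in the OT uteruses, a log2 difference of 0.59 (SE 0.20, 1.51-fold, unadjusted p = 0.0188, limma). Actg2 was at 1540, 1438 and 1477 FPKM in OC and at 2450, 1769, 2928 and 1826 FPKM in OT, a log2 difference of 0.56 (SE 0.22, 1.48-fold, unadjusted p = 0.0351, limma). The OC values of Actg2 lay close together, while the OT values fell into a higher pair, OT1 and OT3, and a lower pair. Acta2 had the same pair on top, at 2611, 2000 and 2046 FPKM in OC and at 3624, 2585, 3919 and 2423 FPKM in OT. Its groups overlapped, since OC1 lay above OT2 and OT4, and its log2 difference was 0.48 (SE 0.24, unadjusted p = 0.0844, limma).

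The actin-binding genes followed the same libraries. Cnn1 was at 478, 431 and 417 FPKM in OC and at 747, 570, 765 and 527 FPKM in OT, a log2 difference of 0.54 (SE 0.18, 1.46-fold, unadjusted p = 0.0158, limma). Tagln was at 2990, 2607 and 2725 FPKM in OC and at 4150, 3800, 4489 and 3132 FPKM in OT, a log2 difference of 0.48 (SE 0.20, 1.39-fold, unadjusted p = 0.0476, limma). In both genes OT4 was the OT library closest to OC1. Lmod1 overlapped throughout, at 43.4 to 58.8 FPKM in OC and 44.8 to 68.4 FPKM in OT, with a log2 difference of 0.13 and a 95% confidence interval of -0.28 to 0.54.

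The motor and its kinase differed less. Myh11 was at 756, 656 and 706 FPKM in OC and at 585, 888, 1137 and 824 FPKM in OT. The OT1 uterus, which was second highest for Acta2, Actg2 and Des, was the lowest of the 7 for Myh11. The log2 difference of Myh11 was 0.24 (SE 0.23, unadjusted p = 0.315, limma), and it ranged from 0.10 without OT3 (unadjusted p = 0.653) to 0.42 without OT1 (unadjusted p = 0.0342). Mylk was at 712, 550 and 596 FPKM in OC and at 712, 685, 1069 and 702 FPKM in OT, a log2 difference of 0.34 (SE 0.20, unadjusted p = 0.136, limma). The OT3 uterus was the highest of the 7 for 8 of 8 contractile genes.

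**Figure D3:**
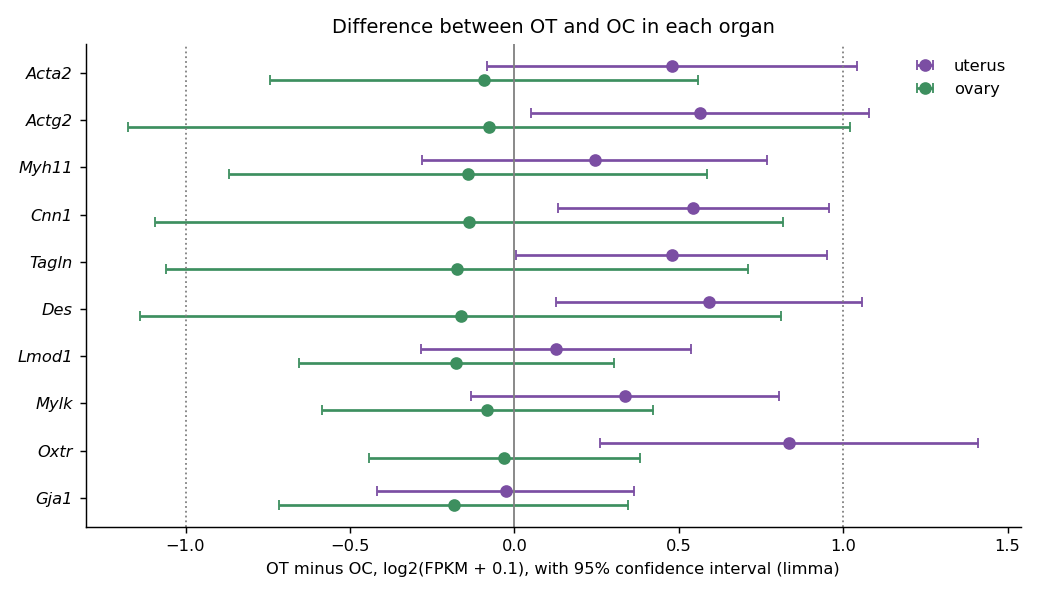
Difference between OT and OC (horizontal axis, log2(FPKM + 0.1), with the 95% confidence interval from limma) for each of the 10 genes in uterus and in ovary. Dotted lines mark a fold change of 2. In the uterus 5 intervals lie above 0 and no estimate reaches the right dotted line, and in the ovary all 10 estimates lie below 0 with intervals that cross it.

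How many members had an unadjusted p of at most 0.05 depended on the libraries and on the model. Without OT1 the count was 4 (Myh11, Cnn1, Des and Oxtr). In that setting the log2 differences of Des and Cnn1 were 0.53 and 0.47 (unadjusted p = 0.0303 and 0.0227, limma), and those of Actg2 and Tagln were 0.51 and 0.44, with unadjusted p above the cutoff, at 0.0556 and 0.0662. Acta2, Mylk and Lmod1 were at 0.40, 0.38 and 0.15, with unadjusted p of 0.14, 0.107 and 0.448 (limma). The count was 3 without OC1 or OT3 and 1 without OC2 or OC3, and over all libraries left out in turn it ran from 1 to 6. With no filter on low values it was 3, and when both organs were fitted together, so that they shared 1 estimate of the spread, it was 1, Oxtr, with an adjusted p of 0.133. Of the stratified epithelium markers, 6 of 7 were called higher in OT, with log2 differences of 6.22 for Krt5, 5.43 for Krt6a, 5.30 for Krt13 and 5.10 for Sprr1a. Krt5 was at 0.357 to 2.81 FPKM in OC and 11.7 to 299 FPKM in OT. Of the adipocyte markers, 6 of 6 were called higher, with 4.27 for Plin1, 4.19 for Cidec, 3.98 for Fabp4 and 3.72 for Retn. Fabp4 was at 19.7 to 86.3 FPKM in OC and 326 to 3228 FPKM in OT. Of 4 uterus markers 0 were called, and their median log2 difference was -0.47. Hoxa10 was at 214 to 236 FPKM in OC and 138 to 186 FPKM in OT, and Hoxa11 at 64.4 to 73.2 and 41.7 to 60.1 FPKM. The part of these other tissues in the values of the muscle genes was not tested.

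Other genes of the same machinery were examined next. Of 21 further tested genes of the contractile apparatus, 0 were called and 20 had a log2 difference above 0, with a median of 0.32. Fhl1, a LIM protein of muscle, had an unadjusted p of 0.0077 with a log2 difference of 0.58 (limma). The most abundant ones were Myl6 (1776 FPKM in OC and 2272 FPKM in OT), a light chain of myosin, and Tpm2 (1473 and 2003 FPKM), with log2 differences of 0.33 and 0.43 and unadjusted p of 0.207 and 0.0821 (limma). Of 9 ion channel genes 0 were called, and Kcnma1, the large potassium channel that quiets the muscle, and Ano1, a calcium-activated chloride channel, differed by 0.03 and 0.17.

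Receptors that raise or lower contraction went in both directions. Of 14 tested receptors 0 were called and 4 had a log2 difference above 0, with a median of -0.09. Rxfp1, the receptor of the hormone relaxin, was at 91.4, 93.5 and 107 FPKM in the OC uteruses and at 28.2, 56.4, 64.5 and 88.9 FPKM in the OT uteruses. All OT values lay below all OC values, with a log2 difference of -0.82 and an unadjusted p of 0.0441 (limma). Ptgir, the prostacyclin receptor, was at 3.08, 2.88 and 3.73 FPKM in OC and at 4.01, 5.94, 4.50 and 4.12 FPKM in OT, all OT values above all OC values as for Oxtr, with a log2 difference of 0.50 and an unadjusted p of 0.0394 (limma). Ptger3, a prostaglandin E receptor, differed by 0.30 with an unadjusted p of 0.157. Of the further connexin genes, the most abundant, Gjc1 and Gjb2, differed by -0.17 and 0.79, with unadjusted p of 0.394 and 0.0548 (limma). Of 12 factors and hormone receptors that act on smooth muscle genes 0 were called, and 2 lay above 0. The estrogen receptor Esr1 and the repressor Zeb2, the most abundant of them, differed by -0.35 and -0.02. Esr1 was at 169 to 178 FPKM in OC and 89.4 to 165 FPKM in OT. All its OT values lay below all OC values, as for 776 of 14151 tested genes.

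Markers of other cells of the uterus were 0 called for skeletal muscle (median 0.13, Acta1 0.37 and Tnni2 0.43), vascular mural cells (median -0.10, Rgs5 -0.61 and Pdgfrb -0.34), stromal fibroblasts (median 0.19, Col1a1 0.16 and Dcn 0.19), uterine epithelium (median -0.51, Krt18 -0.35 and Krt19 0.57), urothelium (median 1.82, Upk1b 0.96 and Upk1a 2.59) and the oviduct (median -1.14, Ovgp1 -1.61 and Pax8 -1.14), all as log2 differences of OT from OC. Of the 5 fibroblast markers 4 lay above 0. Pdgfra went the other way, with a log2 difference of -0.46 and an unadjusted p of at most 0.05 (limma). It was at 124 to 159 FPKM in OC and 85.3 to 118 FPKM in OT. All its OT values lay below all OC values, as for 776 of 14151 tested genes. Of the mural markers, Rgs5 was at 96.5 to 166 FPKM in OC and 72.7 to 114 FPKM in OT. Vascular smooth muscle uses Acta2, Myh11 and Tagln too, so these genes do not mark the myometrium alone.

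In the ovary, no difference between OT and OC passed the test for any of the 10 genes. All 10 estimates lay below 0, between -0.03 for Oxtr and -0.19 for Gja1, and the contractile median was -0.14 against -0.01 over all genes. None of the 10 passed both cutoffs, where 0.451% of 14415 genes did, and none had an unadjusted p of at most 0.05, where 4.51% did (limma). Adjusted p values were 0.997 or higher. The intervals were wide, since the libraries of each group differed strongly. For Actg2 the 95% confidence interval ran from -1.17 to 1.02, so a fold change of 2 in either direction was within it.

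The spread among ovaries ran through the whole contractile set. Actg2 was at 141, 400 and 221 FPKM in the OC ovaries and at 91.2, 262, 290 and 334 FPKM in the OT ovaries, a range of 4.38-fold. Acta2 was at 408, 795 and 535 FPKM in OC and at 327, 541, 664 and 639 FPKM in OT. Myh11 was at 138, 279 and 189 FPKM in OC and at 99.2, 195, 219 and 224 FPKM in OT. OC2 was the highest and OT1 the lowest ovary for 8 of 8 contractile genes, so both extremes lay in different groups. Tagln ranged from 259 to 897 FPKM, Des from 55.1 to 221 FPKM, Cnn1 from 41.5 to 152 FPKM, Mylk from 131 to 256 FPKM, and Lmod1 from 10.4 to 21.3 FPKM, the latter pair with the smallest ranges, 1.95-fold and 2.04-fold. With OC2 left out 9 of the 10 estimates lay above 0, and with OT1 left out 8 did.

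Markers of the uterus varied alongside in part. Hoxa10, which is a positional gene of the uterus, was at 3.92, 53.4 and 27.7 FPKM in the OC ovaries and at 0.572, 6.09, 48.9 and 23.4 FPKM in the OT ovaries. Hoxa11 was at 0.443, 14.7 and 7.09 FPKM in OC and at 0.0707, 0.884, 11.4 and 3.78 FPKM in OT. Both were highest in OC2 and lowest in OT1, as the contractile genes were. Wnt7a, another uterus marker, had the same extremes, at 0.666 and 0.143 FPKM. Msx1 was highest in OC2, at 11.0 FPKM, but lowest in OT2, at 2.79 FPKM against 3.37 FPKM in OT1. Hoxa10 and Hoxa11 were lower in OT2 than in OC3, while Actg2 was higher there, at 262 against 221 FPKM. Adipocyte markers were highest in the OT1 ovary, with a sum of 908 FPKM against 94.7 to 168 FPKM in OC, and 4 of 6 were called higher in OT (Lep, Adipoq, Cidec and Fabp4, with log2 differences of 1.95, 1.70, 1.65 and 1.62). The part of uterine, oviduct or fat tissue in the muscle values of the ovaries, and so in the comparison of the organs, was not tested.

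**Figure D4:**
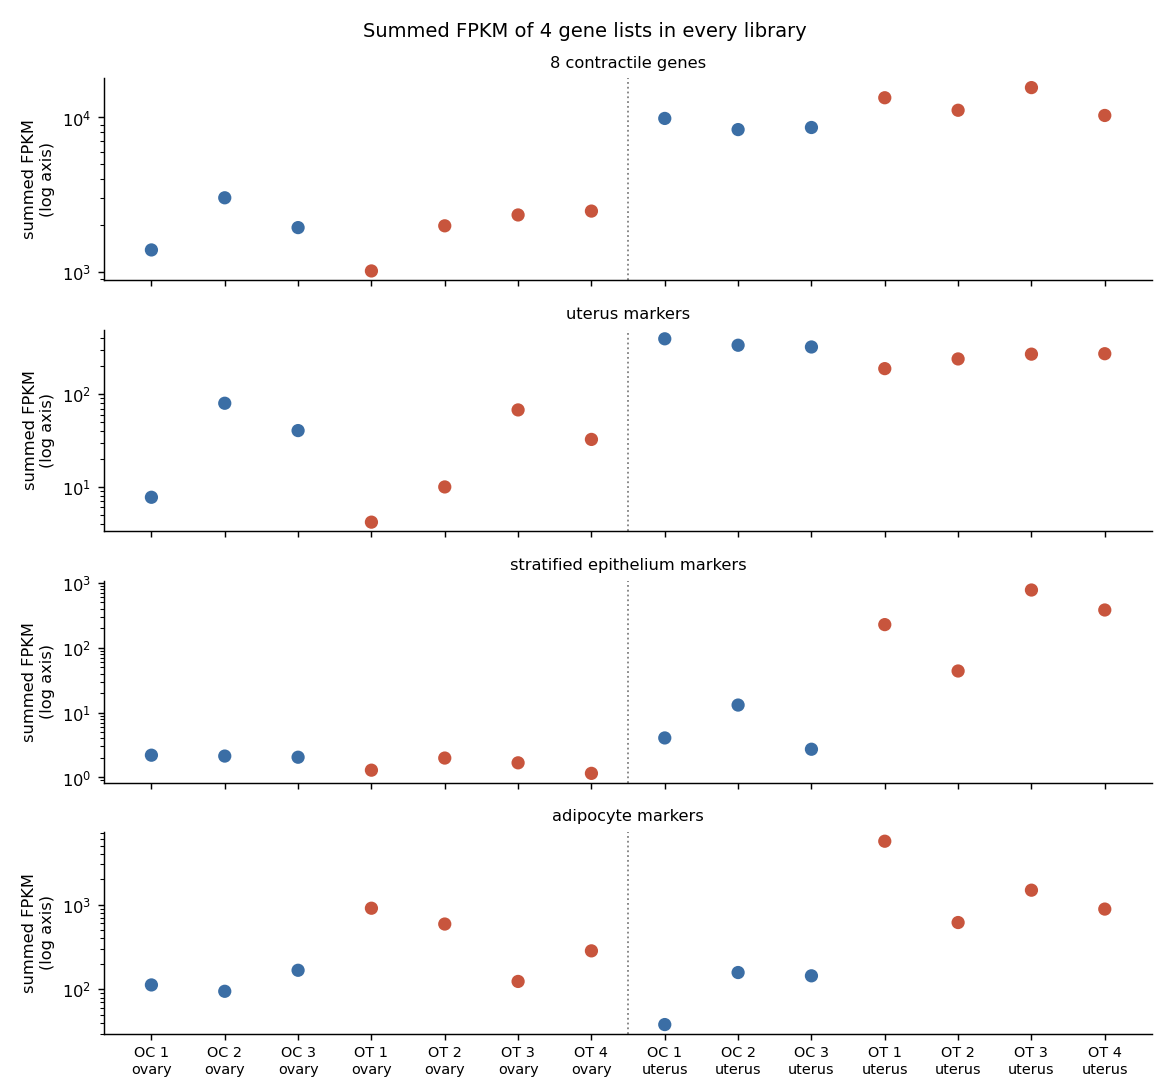
Summed FPKM (vertical axes, log scale) of the 8 contractile genes, 4 uterus markers, 7 stratified epithelium markers and 6 adipocyte markers in each of the 14 libraries, OC in blue and OT in red, with ovaries left of the dotted line. Among the ovaries the contractile and the uterus marker sums are highest in OC2 and lowest in OT1, and among the uteruses the OT libraries lie above the OC libraries in the stratified epithelium and adipocyte sums.

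Oxtr and Gja1 did not follow the muscle genes across ovaries. Oxtr was at 23.4, 31.1 and 28.8 FPKM in the OC ovaries and at 23.9, 37.3, 27.6 and 21.8 FPKM in the OT ovaries, with means of 27.8 ± 3.95 (SD, n = 3) and 27.6 ± 6.86 (SD, n = 4) FPKM. Its highest library was OT2, and its range was 1.71-fold. Gja1 was at 300, 183 and 337 FPKM in OC and at 291, 175, 260 and 221 FPKM in OT. OC2 and OT2 were the lowest pair, and Inha, a granulosa cell gene, was lowest in the same pair, at 259 and 232 FPKM against 410 to 643 FPKM in the other 5 ovaries. Of the other ovary markers, Fshr, Gdf9 and Zp3 had the same lowest pair, while Amh, Cyp11a1 and Lhcgr did not. Amh was at 9.98 FPKM in OC2 but at 17.4 FPKM in OT2, above the 14.8 FPKM of OT3. The relation of Gja1 to these genes was not tested. For both Oxtr and Gja1 the OC and OT ranges overlapped. Without OC2 the log2 difference of Gja1 was -0.45, with an unadjusted p of 0.0472 and an adjusted p of 0.997 (limma), and all other mice left out in turn gave unadjusted p of 0.253 or higher.

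The further genes of contraction were also examined in the ovary. Of 21 genes of the contractile apparatus 0 were called, and 5 lay above 0, with a median of -0.09. Myl6 and Tpm1, the most abundant, differed by -0.15 and -0.12. None of the 10 ion channels, with Ano1 at 0.13 and Kcnma1 at -0.09, was called. Of 13 receptors 0 were called. Ptgfr, the receptor of prostaglandin F2 alpha, which drives regression of the corpus luteum, was the most abundant at 132 to 177 FPKM and differed by -0.09, and Ednrb, an endothelin receptor, by -0.21. Adra1a, an adrenergic receptor, had the lowest unadjusted p of the list, 0.0477, with a log2 difference of 0.68 at 0.524 to 1.44 FPKM. Of 5 connexin and pannexin genes (Gjc1 -0.23, Gja4 -0.06) and 12 transcription factors and hormone receptors (Zeb2 0.04, Esr1 -0.06) 0 were called.

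Marker lists of other cells in the ovary had 0 calls besides the adipocyte list. The 2 most abundant genes of each differed by -0.03 (Acta1) and -0.18 (Neb) for skeletal muscle, -0.06 (Rgs5) and -0.01 (Pdgfrb) for mural cells, 0.09 (Dcn) and -0.16 (Col1a1) for fibroblasts, -0.25 (Krt18) and 0.03 (Krt19) for uterine epithelium, 0.03 (Upk1a) and 0.46 (Upk1b) for urothelium, -0.23 (Ovgp1) and -0.03 (Foxj1) for the oviduct, and -0.01 (Cyp11a1) and -0.24 (Inha) for the ovary itself. Stratified epithelium genes were near 0, with a sum of at most 2.203 FPKM, and Trp63, the 1 tested gene among them, differed by -0.25. Rgs5, the mural marker with the highest level, was at 56.7 to 93.8 FPKM in OC and 61.7 to 94.3 FPKM in OT ovaries. In the uterus 1 of 3 tested ovary markers was called, Cyp11a1, which was at 2.31 to 3.31 FPKM in OC and 0.665 to 2.53 FPKM in OT, and Inha was at most 5.12 FPKM there.

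Finally, the response of the uterus was compared with that of the ovary in a fit of all 14 libraries. The difference of the 2 log2 differences was above 0 for all 10 genes, with a contractile median of 0.61 and 0.02 over all genes. None of the 10 passed a difference of 1 with an unadjusted p of 0.05. Oxtr alone had an unadjusted p of at most 0.05, where 5.12% of 14557 genes did. Its difference was 0.87 (SE 0.33, 95% confidence interval 0.16 to 1.58, unadjusted p = 0.0205, adjusted p = 0.844, limma). The unadjusted p was 0.0193 with the mouse as a block, and 0.0556, 0.109, 0.0701 and 0.0506 with the mice OT1, OC2, OC3 and OT4 left out in turn. With OC1, OT2 and OT3 left out in turn it was 0.0131, 0.00103 and 0.0442 (limma). For the contractile genes the differences ran from 0.30 for Lmod1 to 0.75 for Des, with unadjusted p of 0.172 or higher.

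Ordered by group mean, every contractile gene was highest in the OT uteruses, then in the OC uteruses, the OC ovaries and the OT ovaries. The step between the organs held without overlap of libraries for all 8 genes (11.5% of all tested genes had every uterus above every ovary), the step between the ovary groups overlapped for all 8, and the step between the uterus groups overlapped for Acta2, Myh11, Lmod1 and Mylk. For Oxtr the order was OC ovaries, OT ovaries, OT uteruses and OC uteruses, with an overlap in the first 2 steps. For Gja1 it was OC ovaries, OT ovaries, OC uteruses and OT uteruses, and the step between the organs was the one without overlap.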

How the data were processed

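Stranded libraries of rRNA-depleted total RNA, 14 in all, came from both organs of 3 OC and 4 OT mice. The authors trimmed reads with Skewer 0.2.2, mapped them to mm10 with STAR 2.5 and deposited FPKM values per gene from Cufflinks 2.2.1. These values are estimates and keep no read numbers, so depth is unknown, intervals for counting error could not be given, and the test used in the study, Cuffdiff, which needs reads, was not run. Reads shared by near-identical actin genes such as Acta2 and Actg2 may have been split by the estimate. The 21853 Ensembl identifiers were matched to GENCODE M21 for symbols and positions.

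FPKM were not scaled further. Genes averaging 0.5 FPKM or more entered the model of limma 3.58.1 (R 4.3.3, eBayes with a trend), on log2(FPKM + 0.1), so fold changes of low genes are understated. In each organ OT was compared with OC at a fold change of 2 and an unadjusted p of 0.05, and Benjamini-Hochberg adjusted p values over all tested genes stand beside it. Organs and the difference in response were tested in fits of 14 libraries taken as independent, and the mouse as a block was an alternative. Uterus and ovary with 1 number were taken to be from 1 mouse, by the number in their labels. Their deviations from the group means correlated at 0.0741 to 0.254. Pairs of unlike number correlated at -0.118 to 0.0601 in OC and -0.235 to 0.248 in OT, so the ranges overlap in OT. The 10 genes and all lists were chosen with earlier results of these data known. From each list, genes past the cutoffs were named (at most 4), or the 2 most abundant, and others were named after their values were seen. All list genes were found, and results of some of them are not reported here. P-values measure the spread between the libraries of these mice. The fits were checked on simulated data. Python 3.11.15, pandas 2.3.3 and matplotlib 3.10.9 were used for the rest. Alternatives were a pseudocount of 1, no filter, median-of-ratios scaling, robust eBayes, a replicate block, 1 fit of both organs, and leaving out each mouse.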

Additional observations from a re-analysis of the deposited data

Results flagged for a closer look

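Each of the 10 genes was examined in the 4 OT libraries of either organ, 20 groups of values in all, for a library far from the nearest of the others. Mylk in the OT3 uterus, at 1069 FPKM, and Gja1 in the OT1 uterus, at 107 FPKM, each stood apart from the other 3 OT uteruses by more than Dixon's 95% critical value. Chance flags about 1 in 20 such groups. The response of Oxtr to AMSC-CM differed between uterus and ovary by 0.87 on the log2 scale, at an unadjusted p of 0.0205 and an adjusted p of 0.844 (limma). In the uterus 4 of 4 OT libraries lay above every OC library, and in the ovary the groups overlapped.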

How the results depend on the processing

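The count of members past both cutoffs was 0 in the uterus and 0 in the ovary under each alternative of scaling, pseudocount, filter and fit. For the difference in response it was 0 with another scaling, a pseudocount of 1 and a mouse block, and no other filter or robust fit was run. With mice left out in turn it ran from 0 to 1 in the uterus and from 0 to 1 for the difference in response (Oxtr). Over all genes, 410 were called in the uterus and 65 in the ovary. A pseudocount of 1 gave 259 and 18, no filter gave 159 in the ovary, and leaving out mice gave 51 to 137 in the ovary. OC and OT libraries that share a number come from different mice, and their deviations correlated at -0.0112 to 0.0761 in the uterus and 0.0219 to 0.335 in the ovary. A replicate block on those numbers, which drops OT4, gave 666 called genes in the uterus and 105 in the ovary, and turned Gja1 in the uterus to 0.013 and Oxtr in the ovary to 0.074. Leaving out OT4 without a block gave the same estimates for these genes. With the mouse as a block, all 10 members were still called between organs. Leaving out mice gave log2 differences of -0.167 to 0.0268 for Gja1 in the uterus. In the ovary it gave -0.32 to 0.16 for Acta2, -0.435 to 0.345 for Actg2, -0.39 to 0.13 for Myh11, -0.48 to 0.22 for Cnn1, -0.45 to 0.17 for Tagln, -0.47 to 0.21 for Des, -0.33 to 0.00498 for Lmod1, -0.29 to 0.14 for Mylk, -0.18 to 0.07 for Oxtr and -0.45 to -0.01 for Gja1. The cause of these changes with mice left out was not tested. In all, 527 of 566 alternative values were scored as the same. Of these, 450 were log2 differences that kept direction and side of the threshold. The other 77 were counts of called genes or members, equal to the main count or within a set ratio of it.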
